A study of Mus musculus with 17 samples.

Results

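The COPII coat was examined in epididymal white adipose tissue, the visceral fat pad beside the epididymis, of adult male C57BL/6J mice. Its 10 genes are Sec23a, Sec23b, Sec24a, Sec24b, Sec24c, Sec24d, Sec13, Sec31a, Sar1a and Sar1b. They were taken by symbol or older alias from the array's probes that are not controls, which gave 17 of 41174 probes, and all 10 were among the 18134 genes tested. The group was put together around Sec23a because of its difference between the diets, so the differences between the diets below are descriptions and not tests of the group.

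The HGI group held 9 mice fed a high-fat diet (30 energy% fat) whose carbohydrate had a high glycemic index, and the LGI group held 8 mice fed the same kind of diet with low glycemic index carbohydrate. Both groups were of the same strain and sex, were fed for 13 weeks and were wild type, and there was no group on a low-fat diet. Total RNA of each mouse (500 ng) was labelled with Cy5 and hybridized on a 2-colour Agilent array against 1 Cy3 pool made from all samples of both diets. Values are log2 ratios of Cy5 to Cy3, so 0 is the level of the pool and a difference of 1 is a 2-fold change. The level of the pool need not be the average of these samples. The mean log2 ratio of 5 epididymis and sperm markers lay between -3.07 and -2.22 on all 17 arrays, and the reason was not tested. The submitters had left out 1 other array of each diet on quality. The labels number the samples without further detail on the animals, and whether each came from a separate animal is read from that numbering alone, so the spread behind a p-value is the one between samples and may be technical.

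COPII is the protein coat that buds transport vesicles from the endoplasmic reticulum, the compartment where secreted and membrane proteins are folded. The small GTPase Sar1 starts the coat, Sec23 with Sec24 forms its inner layer and Sec24 picks the cargo, and Sec13 with Sec31 forms the outer cage. In fat tissue the cargo includes adiponectin, leptin, lipoprotein lipase and the collagens of the matrix. The unfolded protein response, which answers a load of unfolded protein in the endoplasmic reticulum, is known to raise transcription of many coat genes, and in mouse cartilage the transcription factor Creb3l2 raises Sec23a.

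All 7 adipocyte markers examined (such as Adipoq and Plin1) were well above background in Cy5 on all 17 arrays. Between 54.2% and 66.7% of probes reached that level on an array. HGI 9 and HGI 10 stood apart. Their profiles were alike, with r = 0.81, while r between either of them and a further array lay at -0.05 to 0.14, and r among the other 15 lay at 0.37 to 0.83. In them the mean log2 ratio of 8 seminal vesicle secretion genes was 1.70 and 1.66, against at most -3.92 on every other array. Their 4 smooth muscle genes stood at 1.84 and 1.49, against at most -0.69 elsewhere. Values with and without HGI 9 and HGI 10 are therefore given beside each other. In a whole fat pad, fewer cells of a type and less RNA per cell cannot be told apart.

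Sec23a, whose protein activates the GTPase of Sar1 within the inner coat, was higher in the HGI group. Its log2 ratio ran from -0.17 (HGI 7) over a median of 0.04 to 0.37 (HGI 6) in HGI mice, against -0.38, -0.19 and -0.04 in LGI mice. All 9 HGI mice lay above the LGI median, and HGI 7 and HGI 10 fell within the LGI range, so the groups overlapped. The mean was 0.08 ± 0.16 in HGI mice (SD, n = 9) and -0.22 ± 0.12 in LGI mice (SD, n = 8), a difference of 0.29 ± 0.07 (SE, 95% interval 0.14 to 0.45). Without HGI 9 and HGI 10 the difference was 0.32. It was 0.27 within the first 8 arrays scanned and 0.32 within the later 9, which held 4 and 5 HGI mice beside 4 LGI mice each. Its size depended on the form of the data: it was 0.43 from the scanner software's processed signals and 0.18 from Cy5 intensities alone. From the authors' deposited table of log2 values it was 0.12 ± 0.10 (SE). In that table Sec23b had the largest difference of the coat genes, 0.23 ± 0.09 (SE). There Sec23b, and not Sec23a, was the 1 coat gene with an unadjusted p under 0.05 (limma). The values of Sec23a in the authors' deposited table correlated at 0.38 with the log ratios over the 17 arrays, where the median over all genes in both was 0.53.

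**Figure D1:**
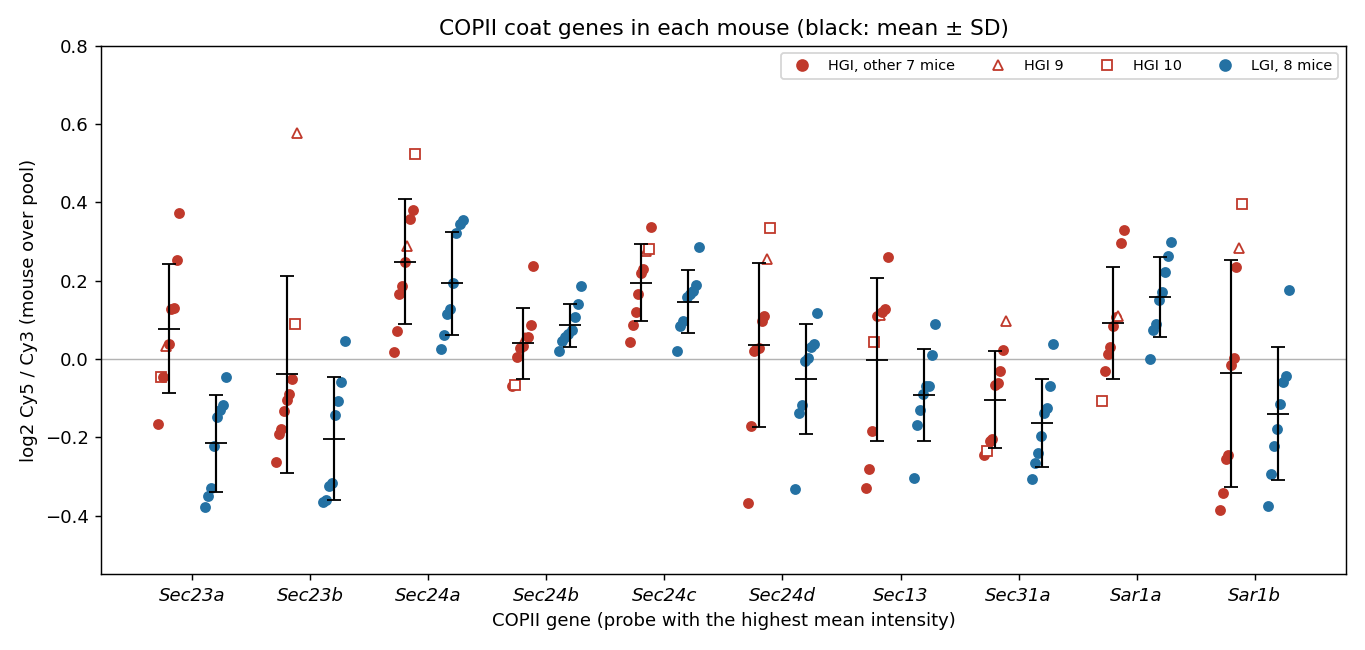
Log2 ratio of Cy5 (mouse) to Cy3 (pool) of the 10 COPII coat genes in each mouse, HGI left of LGI for each gene; black bars are the mean and SD of all mice of a diet, and open symbols are HGI 9 and HGI 10. The 9 HGI mice of Sec23a lie between -0.17 and 0.37 and the 8 LGI mice between -0.38 and -0.04, while the ranges of the other genes overlap more widely.

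Sec23b encodes the paralog of Sec23a, and its loss in humans causes a congenital dyserythropoietic anaemia. Sec23b ran from -0.26 over -0.11 to 0.58 in HGI mice, against -0.36, -0.23 and 0.05 in LGI mice. The highest value was that of HGI 9, and the next highest, 0.09, was that of HGI 10; the other 7 HGI mice lay within the LGI range. The difference of 0.16 ± 0.10 (SE) became 0.06 without these arrays.

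The Sec24 proteins carry the pockets that bind sorting signals of the cargo. Sec24a ran from 0.02 over 0.25 to 0.52 in HGI mice and from 0.03 over 0.16 to 0.36 in LGI mice. Sec24d, whose human gene is mutated in a form of brittle bone disease, ran from -0.37 over 0.03 to 0.33 in HGI mice, against -0.33, -0.0003 and 0.12 in LGI mice. Both ranges overlapped almost fully apart from the top, where HGI 10 was the highest of all mice for either gene. The difference was 0.06 ± 0.07 for Sec24a and 0.09 ± 0.09 for Sec24d (SE), and each was 0.01 without HGI 9 and HGI 10. In the authors' deposited table Sec24a had the opposite sign, at -0.10, and its values correlated at 0.13 with the log ratios over the 17 arrays.

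Sec24b and Sec24c varied least of the 10 genes. Over the 17 mice the SD of the log2 ratio was 0.08 for Sec24b and 0.09 for Sec24c, and 0.469% and 1.86% of all genes tested had a smaller one. Sec24b ran from -0.07 over 0.03 to 0.24 in HGI mice and from 0.02 over 0.07 to 0.19 in LGI mice, a difference of -0.05 ± 0.05 (SE). Sec24c ran from 0.04 over 0.22 to 0.34 in HGI mice and from 0.02 over 0.16 to 0.29 in LGI mice, a difference of 0.05 ± 0.06 (SE). For both genes the diets overlapped widely, and without HGI 9 and HGI 10 the differences were -0.03 and 0.02. The values of Sec24c in the authors' deposited table correlated at -0.09 with its log ratios over the 17 arrays, the lowest of the 10 genes.

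The outer cage is built from Sec13, a propeller protein that also serves in the nuclear pore, and Sec31a, its rod-forming partner. Sec13 ran from -0.33 over 0.11 to 0.26 in HGI mice, against -0.30, -0.08 and 0.09 in LGI mice. HGI 4, HGI 6 and HGI 7 lay between -0.33 and -0.18 and the other 6 HGI mice at 0.04 or above. HGI mice thus went beyond both ends of the LGI range. No HGI mouse lay between -0.18 and 0.04, where the LGI median of -0.08 fell. Sec31a ran from -0.25 over -0.07 to 0.10 in HGI mice and from -0.31 over -0.17 to 0.04 in LGI mice. The difference was 0.09 ± 0.08 for Sec13 and 0.06 ± 0.06 for Sec31a (SE), and 0.07 and 0.05 without HGI 9 and HGI 10. Sec13 differed by 0.19 in the first 8 arrays scanned and by 0.01 in the later 9.

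Sar1a and Sar1b encode the GTPases that recruit the coat, and loss of human SAR1B blocks the release of chylomicrons from the gut. Sar1a ran from -0.11 over 0.08 to 0.33 in HGI mice and from 0.0007 over 0.16 to 0.30 in LGI mice, a difference of -0.07 ± 0.07 (SE), and of -0.04 without HGI 9 and HGI 10. Sar1b had the widest spread of the 10 genes, with an SD of 0.24 over the 17 mice. It ran from -0.39 over -0.02 to 0.40 in HGI mice, against -0.38, -0.15 and 0.18 in LGI mice. HGI 9 and HGI 10 held the top 2 values of Sar1b, and its difference of 0.10 ± 0.11 (SE) became -0.004 without them.

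Across the coat, 8 of the 10 genes had a higher mean in HGI than in LGI mice (52.6% of all genes tested did), with Sar1a and Sec24b the exceptions. The median difference of the 10 was 0.07, against 0.01 over all genes. Without HGI 9 and HGI 10 these became 7 of 10 genes, a median of 0.02, and 0.0002 over all genes. By limma's linear model with Benjamini-Hochberg adjustment over all genes, 0 of the 10 passed an adjusted p of 0.05 in either direction, beside 0% of all genes higher and 0% lower. At an unadjusted p under 0.05 the count was 1 of the 10, Sec23a, beside 7.74% of all genes in either direction (1404 of 18134) and 3.96% higher. Since the group was chosen on this contrast, nothing is read from these counts. Within the first 8 and the later 9 arrays scanned, 9 of the 10 genes had the same sign, and Sec24a had 0.11 early and -0.0008 late. Some of the 9 were near 0 in 1 part, such as Sec24c at 0.005 late and Sec24b at -0.006 early. The share of all genes with the same sign was not counted, so nothing is read from this count. The plot of the difference with and without HGI 9 and HGI 10 shows that Sec23a kept its size while Sec23b, Sec24d and Sar1b moved toward 0.

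**Figure D2:**
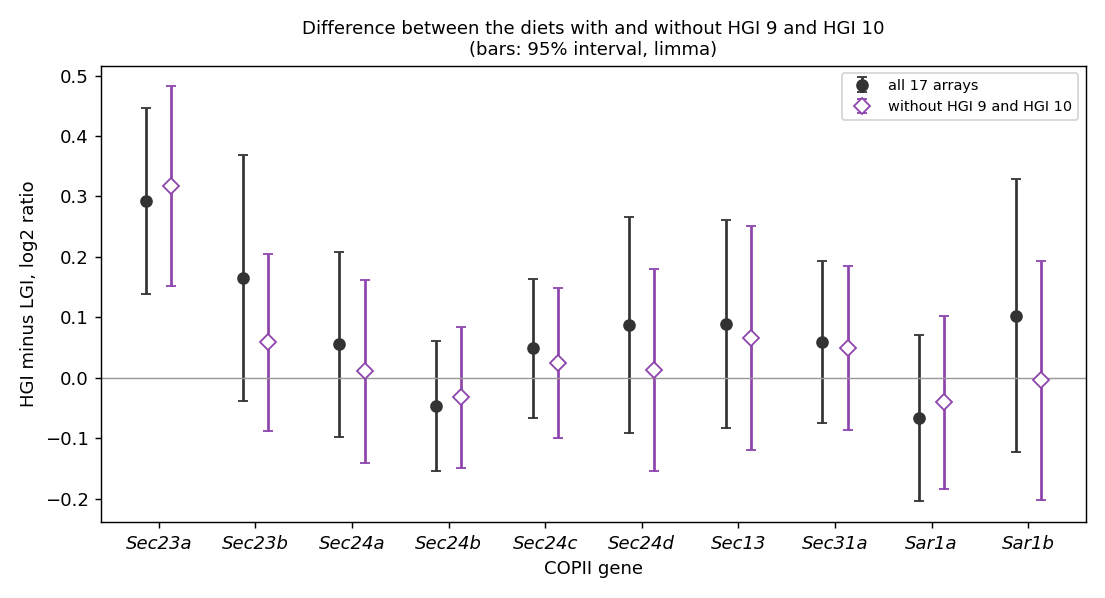
Difference of the mean log2 ratio, HGI minus LGI, of the 10 genes with all 17 arrays (filled) and without HGI 9 and HGI 10 (open); bars are 95% intervals from limma. Sec23a stays at 0.29 and 0.32, Sec23b moves to 0.06 from 0.16 and Sar1b to -0.004 from 0.10.

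HGI 9 and HGI 10 differed from the other 15 arrays in some coat genes and not in others. Sec23b exceeded the median of those 15 by 0.72 in HGI 9 and 0.23 in HGI 10, Sec24d by 0.24 and 0.32, and Sar1b by 0.46 and 0.58. In these 3 of 10 genes (30%) both arrays lay above every other array, against 11.1% of all genes with no missing value. Sec23a exceeded the median by 0.15 and 0.07 in these arrays and stayed inside the range of the other 15. Sar1a stood at 0.002 above the median in HGI 9 and 0.21 below it in HGI 10, where it was the lowest of all 17 mice. Hspa5, the main chaperone of the endoplasmic reticulum, exceeded it by 1.00 and 0.71, and 17 of 25 genes of the unfolded protein response and folding list (68%) and 15 of 23 translocon genes (65.2%) were above every other array in both. Collagen Col1a1 lay 0.47 and 0.79 below the median. The part of the seminal vesicle and smooth muscle signal in these values was not tested.

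Of the 17 probes, 13 were well above background in Cy5 on all 17 arrays and 4 were not tested for lack of signal. The plot of all probes shows where further probes of a gene agree in sign. The second Sec23a probe was well above background on 0 arrays, so Sec23a rests on 1 probe; the dim probe differed by 0.15 ± 0.08 (SE), and its r with the probe used was 0.24 over 17 arrays and -0.09 within diets over 15. The second tested probe of Sec23b differed by 0.04 ± 0.10, against 0.16 ± 0.10 for the probe used. That of Sec24b differed by -0.07 ± 0.08, against -0.05 ± 0.06 for the probe used (SE, limma over all probes with no filter on signal). Sar1a's second tested probe had the opposite sign, 0.04 ± 0.08 against -0.07 ± 0.07. Within diets over 15 arrays the 2 probes correlated at -0.37 for Sec23b, -0.37 for Sec24b and 0.59 for Sar1a, so the probes of Sec23b and of Sec24b disagreed from mouse to mouse. The dim probes of Sec24a differed by -0.10 and 0.03 and that of Sec13 by -0.03. The probes' sequences were not used here, and which transcripts each one binds was not examined.

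**Figure D3:**
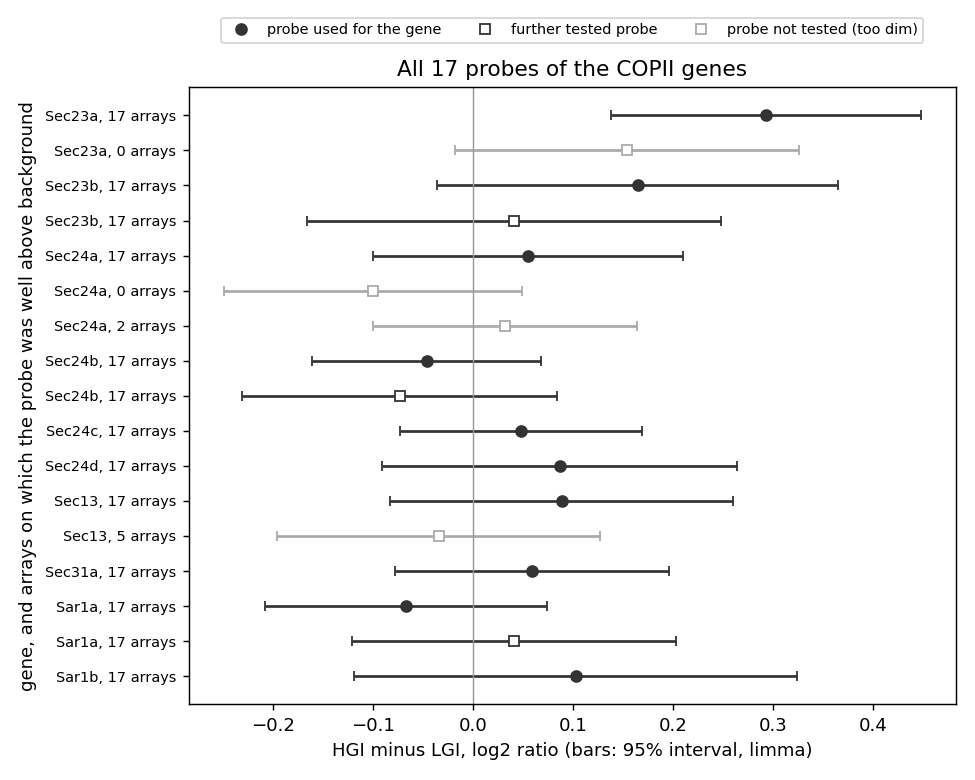
Difference of the mean log2 ratio, HGI minus LGI, with 95% intervals from limma, of all 17 probes of the 10 genes; labels give the number of arrays on which the probe was well above background in Cy5. The probe used for Sec23a lies at 0.29 and its dim second probe at 0.15, and the 2 Sar1a probes lie on either side of 0.

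Promoter sequence was read for the coat genes because the unfolded protein response has known promoter elements. Hspa5, 1 gene of the unfolded protein response and folding list, is set beside the coat genes below and does not stand for the whole response. All 10 genes and Hspa5 matched a RefSeq promoter table of mouse assembly GRCm38.p6, whose windows run from 250 bases before a gene's start to 50 after it. The first base of the gene is counted as 1 and the base before it as -1. The Sec23a window, chr12:59011988-59012267 on the minus strand, is shown with the letters TGACGTGG in capitals, the UPR element (UPRE) bound by Xbp1 and Atf6, here at bases 7 to 14 of the transcript. The Hspa5 window, chr2:34771840-34772119 on the plus strand, is shown beside it with its ER stress element (ERSE, CCAAT and CCACG with 9 bases between) in capitals, at -65 to -47. Both are printed 5′ to 3′ on the gene's strand and end 30 bases into the gene, while motifs were searched over the whole window.
Sec23a: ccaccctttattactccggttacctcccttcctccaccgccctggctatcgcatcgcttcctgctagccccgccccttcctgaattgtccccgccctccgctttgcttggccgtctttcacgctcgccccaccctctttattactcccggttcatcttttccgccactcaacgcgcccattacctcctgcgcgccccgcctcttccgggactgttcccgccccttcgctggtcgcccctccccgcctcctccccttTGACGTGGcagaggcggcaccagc
Hspa5: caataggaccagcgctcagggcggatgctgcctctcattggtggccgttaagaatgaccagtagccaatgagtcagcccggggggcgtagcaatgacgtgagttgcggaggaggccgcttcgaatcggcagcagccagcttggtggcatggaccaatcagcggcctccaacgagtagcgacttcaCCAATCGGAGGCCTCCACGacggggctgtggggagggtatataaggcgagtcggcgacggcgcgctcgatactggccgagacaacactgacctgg

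UPRE was found on either strand in 2 of the 10 coat genes, Sec23a and Sec24d, beside 0.714% of the 27025 genes in the table and 0.676% of its 32851 windows. ERSE was found in 0 of the 10, beside 0.137% of genes, ERSE-II (ATTGG and CCACG with 1 base between) in 0 beside 0.0444%, and the cyclic AMP element TGACGTCA in 0 beside 2.03%. The last 6 letters of UPRE, ACGTGG, were searched after the windows had been read, and overlap UPRE. They occurred on either strand in 7 of the 10 coat genes, beside 9.40% of genes and 8.31% of windows. Since these letters were picked after reading the same windows, this count is a description and nothing is read from the comparison. A match is a run of letters and not evidence that a factor binds there, and where letters were not found nothing follows about the factor. The 30 bases around each match in the first window of a gene are shown on that gene's strand, with ACGTGG or its reverse complement CCACGT in capitals.
Sec23a, bases 9 to 14, chr12:59011992-59012021, minus strand: tcctcccctttgACGTGGcagaggcggcac
Sec24d, -24 to -19, chr3:123267460-123267489, plus strand: cccgggcgcctgACGTGGcactagcaaccc
Sec24c, -75 to -70, chr14:20674234-20674263, plus strand: tgcctaaggccgACGTGGcagaaggagtgg
Sec24b, -169 to -164, chr3:130061059-130061088, minus strand: ccgaggatgggtACGTGGgtgggctgggac
Sec13, -2 to 4, chr6:113740666-113740695, minus strand: cgttttgagctgCCACGTccgaggccgtgg
Sec31a, bases 14 to 19, chr5:100416204-100416233, minus strand: gggctgcggctgCCACGTtggagcggagcg
Sar1a, -157 to -152, chr10:61680116-61680145, plus strand: tgacagacgctgCCACGTcttaccccgctt

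Sec23b, Sec24a and Sar1b held none of the 5 motifs in their windows. Of the 4 genes with a within-diet r above 0.5 with Hspa5 below, Sec23a and Sec24d held UPRE, Sar1a held ACGTGG and Sec23b held neither. Sec24b, Sec24c, Sec13 and Sec31a held ACGTGG and were not among those 4. Whether a motif goes with the relation to Hspa5 was not tested.

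Whether the coat genes follow the chaperone gene Hspa5 and the collagen gene Col1a1 from mouse to mouse was asked within diets. The 15 arrays without HGI 9 and HGI 10 were used, since the 2 arrays form a cluster of their own. Hspa5 ran from -0.46 over -0.25 to 0.63 in HGI mice and from -0.77 over -0.49 to -0.15 in LGI mice. Its difference between the diets was 0.38 ± 0.14 (SE) and 0.21 without HGI 9 and HGI 10. Col1a1, a chain of the main fibrillar collagen and a large cargo of the coat, ran from -0.95 over -0.03 to 0.62 in HGI mice and from -0.80 over -0.22 to 0.17 in LGI mice. Hspa5 and Col1a1 correlated at 0.64 within diets, so the 2 relations are not independent.

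With Hspa5, 4 of the 10 coat genes had a within-diet r above 0.5, beside 3.90% of all genes. Sar1a had r = 0.61 (permutation p = 0.0156, two-sided) and Spearman's rho = 0.47 (permutation p = 0.0737). Sec23b had r = 0.59 (permutation p = 0.0372) and rho = 0.59 (permutation p = 0.0471). The further tested probe of Sec23b correlated at -0.37 with the one used here, within diets over 15 arrays. Sec23a had r = 0.56 (permutation p = 0.0318) and rho = 0.63 (permutation p = 0.0143), and Sec24d had r = 0.50 (permutation p = 0.0601) and rho = 0.46 (permutation p = 0.0891). The other 6 genes lay between -0.05 and 0.25, with Sar1b the lowest, and the median r of the 10 was 0.23 against 0.03 over all genes. When the 2 mice farthest from the median of Hspa5 (HGI 4 and LGI 7) were left out, r became 0.68 for Sec23b, 0.47 for Sec23a, 0.34 for Sec24d and 0.32 for Sar1a, so the relation of Sar1a and of Sec24d rested in part on those mice.

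None of these relations passed correction over all genes. A slope on Hspa5 with diet as a term (limma, 18133 genes) gave 0 of 10 coat genes an adjusted p under 0.05, beside 0% of all genes with a positive and 0% with a negative slope, and the smallest adjusted p of a coat gene was 0.942. At an unadjusted p under 0.05, 3 of the 10 (Sec23a, Sec23b and Sar1a) had a positive slope, beside 2.91% of all genes. This count was 0 without LGI 2, without LGI 6 or without HGI 7, and 7 with median centring in place of loess. It was 1 with the mean of the tested probes of each gene. The share of all genes at that level was not counted in these settings, so nothing is read about the coat from these counts. With all 17 arrays Sec23b and Sec24d passed, beside 1215 genes of the table (6.7%), so that this call rests on HGI 9 and HGI 10; on Col1a1 0 coat genes passed with all arrays, beside 3.68% of all genes. Over 17 arrays the within-diet r with Hspa5 was 0.16 for Sec23a and 0.16 for Sar1a, while it was 0.83 for Sec23b, 0.69 for Sec24d and 0.46 for Sar1b. HGI 9 and HGI 10 had the highest Hspa5 of all mice. The relation was also uneven between the diets: r was 0.28 in 7 HGI mice (exact permutation p = 0.545) and 0.88 in 8 LGI mice (exact permutation p = 0.00873) for Sec23a, and 0.83 in HGI mice (exact permutation p = 0.00972) and 0.45 in LGI mice (exact permutation p = 0.257) for Sar1a. The rho of Sar1a in HGI mice was 0.71 (exact permutation p = 0.0881) and that of Sec23a in LGI mice 0.81 (exact permutation p = 0.0218). Whether r differs between the diets was not tested.

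**Figure D4:**
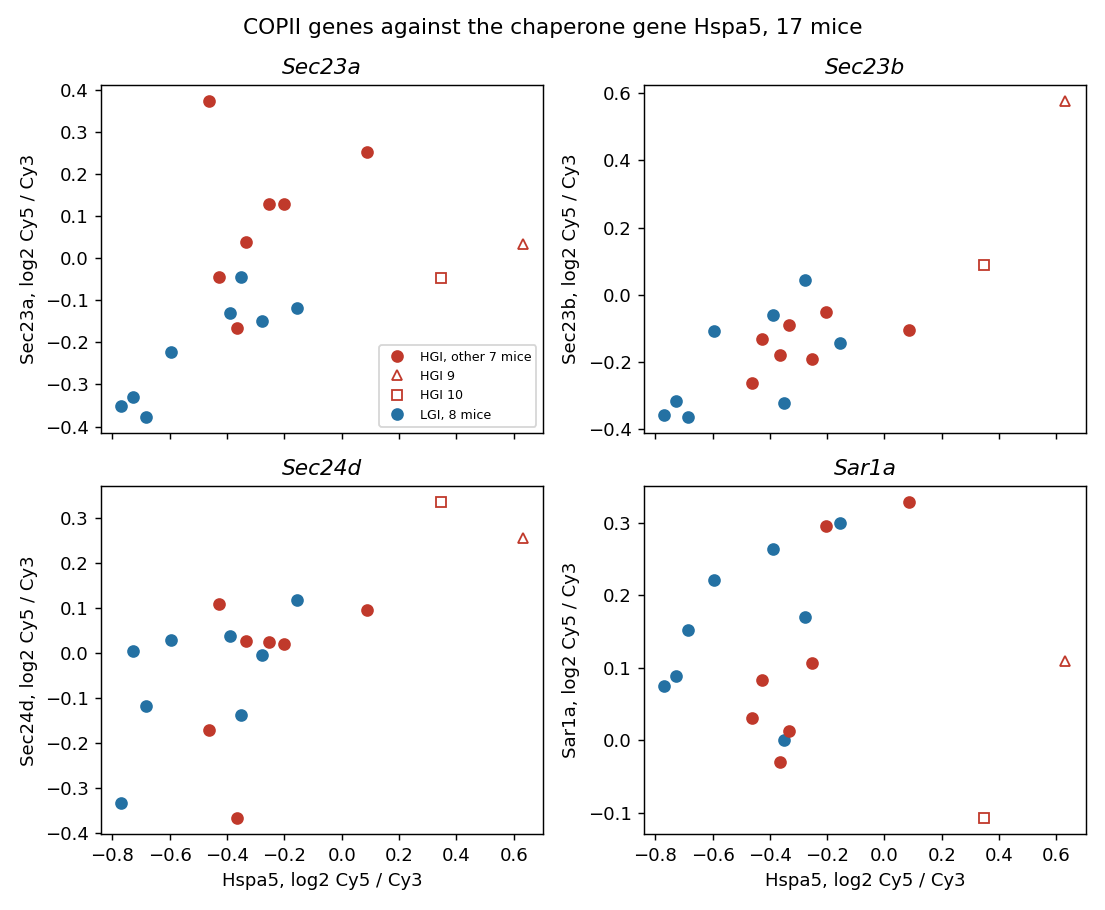
Log2 ratio of 4 coat genes (vertical axes) against that of the chaperone gene Hspa5 (horizontal axes) in each of 17 mice, with HGI in red, LGI in blue and HGI 9 and HGI 10 as open symbols. HGI 9 and HGI 10 have the highest Hspa5, at 0.63 and 0.35, and lie at the top for Sec23b and Sec24d, in the middle for Sec23a, and at 0.11 and -0.11 for Sar1a.

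With Col1a1, Sec24d had r = 0.54 (permutation p = 0.0522) and rho = 0.24 (permutation p = 0.401), and Sar1a had r = 0.53 (permutation p = 0.0513) and rho = 0.56 (permutation p = 0.036). These were 2 of 10 coat genes above 0.5, beside 5.54% of all genes. Sec23a, whose human mutations impair collagen secretion, had r = 0.43 (permutation p = 0.127) and rho = 0.38 (permutation p = 0.175), and the r of the other 7 genes lay between -0.05 and 0.34. Without HGI 4 and LGI 2, the mice farthest from the median of Col1a1, r fell to 0.28 for Sec24d, 0.29 for Sar1a and 0.25 for Sec23a. The slope on Col1a1 (limma) passed the adjusted threshold in 0 of 10 coat genes, beside 0% of all genes positive and 0.00551% negative, and 1 of the 10, Sec24d, had a positive slope with an unadjusted p under 0.05, beside 4.38% of all genes. With all 17 arrays the within-diet r with Col1a1 was -0.14 for Sec24d, -0.32 for Sec23b and -0.46 for Sar1b, against 0.54, 0.34 and 0.01 without HGI 9 and HGI 10, so the sign turned with these arrays. It stayed positive for Sar1a, at 0.59, and Sec23a, at 0.47, and 4 of the 10 genes were above 0 with all arrays, against 9 without these. In the 7 HGI mice alone Sar1a and Col1a1 had r = 0.91 (exact permutation p = 0.000794), against 0.09 in the 8 LGI mice (exact permutation p = 0.84). Over both diets together 20 relations of the coat genes with Hspa5 and Col1a1 were computed, and another 40 within a single diet, of which 3 had an exact p of r under 0.05 and 2 an exact p of rho under 0.05, before any adjustment. With both markers in 1 fit the adjusted p of every coat gene was 0.978 or above.

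Among themselves the coat genes did not move as 1 block. Over the 45 pairs the within-diet r (15 mice, a description with no test) ran from -0.62 to 0.72 with a median of 0.21, and it was above 0.5 in 7 pairs and below 0 in 17. The highest was that of Sec24b with Sec24c, 0.72, followed by 0.65 for Sec13 with Sar1b and 0.65 for Sec24d with Sar1a. Sec24b and Sec24c had the smallest SD of the coat genes. The second tested probe of Sec24b correlated at -0.37 within diets with the one used. The lowest was -0.62 for Sec24a with Sar1b. Sec23a was in none of the 7 pairs, and its highest r with another coat gene was 0.34, with Sar1a and with Sec24d. Its r was 0.21 with its paralog Sec23b, and below 0 with Sec24a (-0.21), Sar1b (-0.13) and Sec13 (-0.09).

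The 5 named genes most like Sec23a within diets over the 15 mice were Kcnq5, a potassium channel gene, with r = 0.94, Pign, an enzyme gene of GPI anchor synthesis, with r = 0.90, Slc52a2, a riboflavin transporter gene, with r = 0.90, Pclaf, a gene of a factor that binds the replication clamp, with r = 0.89, and the olfactory receptor gene Olfr914, with r = 0.88. Over all 17 mice r was 0.81, 0.90, 0.90, 0.82 and 0.43 in the same order. The likeness of Olfr914 to Sec23a was thus lower with HGI 9 and HGI 10. Each was also higher in HGI mice, by 0.34 ± 0.10 for Kcnq5, 0.17 ± 0.07 for Pign, 0.22 ± 0.07 for Slc52a2, 0.26 ± 0.11 for Pclaf and 0.28 ± 0.08 for Olfr914 (SE). The arrays were the same for all of them, so array effects that they share enter these values. The probe used for Sec23a had the lowest mean log2 intensity of those used for the coat genes, 7.57, against 6.25 for its dim second probe. How bright the probes of these 5 genes were was not examined here.

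Markers of other cell types were read beside Sec23a as the mean log2 ratio of each list. The 7 macrophage markers ran from -0.25 over 0.10 to 0.52 in HGI mice and from -0.11 over 0.01 to 0.08 in LGI mice, and all 7 were well above background on all 17 arrays. The other 7 HGI mice, without HGI 9 and HGI 10, ran from -0.09 over 0.19 to 0.52. The 7 fibroblast and progenitor markers ran from -0.43 over 0.14 to 0.45 in HGI mice and from -0.20 over 0.04 to 0.22 in LGI mice, again with all 7 well above background on all 17 arrays. Their lowest values were those of HGI 9 and HGI 10, without which the HGI mice ran from 0.05 over 0.15 to 0.45. Both lists thus had a higher median in HGI mice, as Sec23a did, their within-diet r with Sec23a over 15 mice was 0.47 for macrophages and 0.45 for fibroblasts (a description), and their part in its difference was not tested. The 7 adipocyte markers ran from -0.31 over -0.01 to 0.11 in HGI mice and from -0.31 over 0.05 to 0.15 in LGI mice, and the 5 endothelial markers had medians of 0.12 in HGI and 0.13 in LGI mice. The 5 mesothelial markers ran from -0.36 over -0.18 to 0.44 in HGI mice, with a median of -0.07 without HGI 9 and HGI 10, and from -0.02 over 0.10 to 0.53 in LGI mice. Their within-diet r over 15 mice was -0.16 with Sec23a and -0.80 with Sec24d, the largest in size of the lists for Sec24d. With Sec24d r was also 0.64 for adipocyte, 0.58 for fibroblast and progenitor and 0.46 for macrophage markers. The remaining lists lay between -0.34 and 0.33 with Sec24d. The part of these lists in the Sec24d values was not tested. The 5 T and NK cell markers had medians of 0.13 in HGI and 0.14 in LGI mice, and 1 of them was well above background on all 17 arrays. For B and plasma cells, which secrete heavily, the plasma cell gene Igj was not found under that symbol among the genes tested. Whether its probe lacked signal was not examined. The other 4 markers ran from -0.24 over -0.03 to 0.09 in HGI mice and from -0.26 over -0.17 to -0.004 in LGI mice. This list too had a higher median in HGI mice, and its within-diet r with Sec23a over 15 mice was 0.43. That of the 8 seminal vesicle genes was -0.61, the largest in size of the lists read. Their parts in the Sec23a values were not tested.

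The rest of the early secretory pathway was read from 6 lists. Among 31 tested COPII regulators and cargo receptors, 20 were higher and 11 lower in HGI mice with a median difference of 0.05, and 0 passed the adjusted threshold (limma) while 6 had an unadjusted p under 0.05. Beside these counts and those of the other lists, 52.6% of all genes were higher and 7.74% had an unadjusted p under 0.05, and 1 of the 6, Mia2 (-0.23), was lower in HGI mice. Tmed10, a p24 cargo receptor, differed by 0.40 ± 0.15, Mcfd2, which with Lman1 carries clotting factors, by 0.27 ± 0.09, and Tmed5, another p24 protein, by 0.25 ± 0.10 (SE). Without HGI 9 and HGI 10 these were 0.17, 0.15 and 0.33, and 16 of 31 genes were higher with a list median of 0.006. Tmed10 and Mcfd2 were thus nearer 0 without them, as Sec23b was, and Tmed5 was farther from it, as Sec23a was.

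Of 22 tethers, SNAREs and Rab1 genes, which bring the uncoated vesicle to the Golgi, 15 were higher and 7 lower with a median of 0.09, and 1 had an unadjusted p under 0.05, a share below that of all genes. The count was 14 higher and the median 0.05 without HGI 9 and HGI 10. The gene under 0.05 was Yipf5, a membrane protein that cycles between the compartments, with 0.21 ± 0.07, and next in the list were the SNARE gene Gosr1 with -0.10 ± 0.05 and Scfd1, which binds syntaxin, with 0.15 ± 0.08. Of 18 genes of the COPI coat, which runs the return route, 12 were higher and 6 lower with a median of 0.04, and 3 had an unadjusted p under 0.05. These were Copb2, a coat subunit, with 0.26 ± 0.07, Kdelr3, a retrieval receptor, with 0.26 ± 0.07, and Gbf1, the exchange factor that starts the coat, with -0.21 ± 0.07. Copb2 and Kdelr3, like Sec23a, kept their size without HGI 9 and HGI 10, at 0.25 and 0.27, and Gbf1 stood at -0.16. The list did not, with 9 of 18 genes higher and a median of 0.01 without these arrays.

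Of 23 translocon genes, which bring proteins into the endoplasmic reticulum, 22 were higher and 1 lower with a median of 0.13, and 5 had an unadjusted p under 0.05. Sec61b and Sec61a1, both of the channel, differed by 0.35 ± 0.15 each and Srp54a, of the signal recognition particle, by 0.17 ± 0.08. Without HGI 9 and HGI 10 both channel genes stood at 0.13, and 18 of 23 genes were higher with a list median of 0.07. Of 26 genes of the unfolded protein response and folding, 21 were higher and 5 lower with a median of 0.14, and 8 had an unadjusted p under 0.05. Sdf2l1, a chaperone partner in the endoplasmic reticulum, differed by 0.62 ± 0.19 and Ern1, the stress sensor that splices Xbp1 RNA, by 0.20 ± 0.08. Without HGI 9 and HGI 10 Sdf2l1 stood at 0.35, Ern1 at 0.14 and the list's median at 0.04, with 17 of 26 genes higher. Of the 8 genes under 0.05, 1 was lower in HGI mice, Xbp1 (-0.21, and -0.27 without these arrays), a transcription factor of the response. Mia2 and Xbp1 were named after their values were seen.

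Of 20 genes of collagen cargo and collagen-modifying enzymes, 18 were higher and 2 lower with a median of 0.12, and 2 had an unadjusted p under 0.05, near the share of all genes. Here the values were larger without HGI 9 and HGI 10, with a median of 0.23 and 19 of 20 genes higher. The matrix gene Sparc, whose protein binds collagen, stood at 0.47 ± 0.15 and at 0.58 without them, Col5a2 at 0.29 ± 0.12 and 0.44, and Col6a3 at 0.25 ± 0.14 and 0.33. None of the genes on the 6 lists passed the adjusted threshold (limma, Benjamini-Hochberg over 18134 genes). The median of the coat itself, 0.07 with all arrays and 0.02 without HGI 9 and HGI 10, lay between those of the other lists in both cases.

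**Figure D5:**
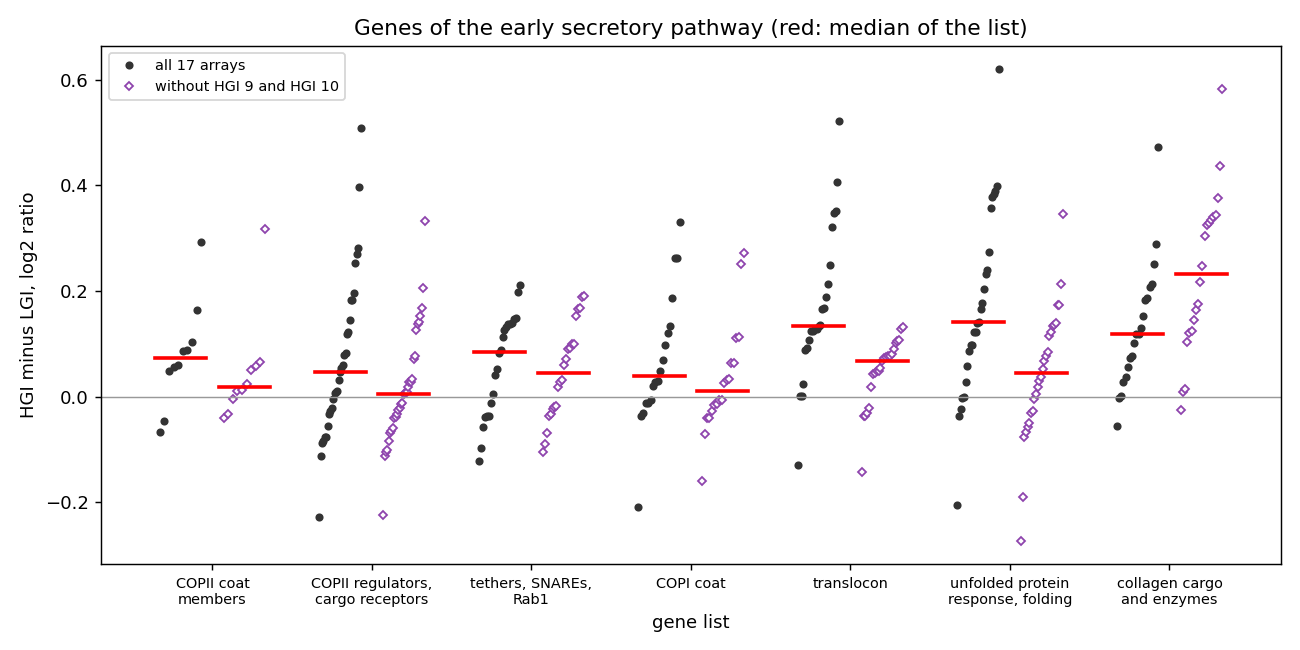
Difference of the mean log2 ratio, HGI minus LGI, of each tested gene of the COPII coat and of 6 lists of the early secretory pathway, with all 17 arrays (filled) and without HGI 9 and HGI 10 (open); red lines are list medians. The median of the coat is 0.07 and 0.02, that of the translocon 0.13 and 0.07, and that of collagen cargo 0.12 and 0.23.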

How the data were processed

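Per the file headers, the scanner files hold spot intensities of both dyes, their local background, quality flags and dye-normalized processed signals, written by Agilent Feature Extraction (9.1.3.1 in the headers, 9.5.1.1 in the submitters' processing notes). A deposited table of the authors' log2 values covers 19836 probes, with column medians between 8.329 and 8.331. How they were normalized is not given in the sources used here, and they served as an alternative.

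Intensities were background-corrected by normexp with an offset of 50, and the log2 Cy5/Cy3 ratio was loess-normalized within each array (limma 3.58.1, R 4.3.3, data.table, version 1.17.8). Of 43790 spots, 2256 controls were left out, and so were flagged outlier spots. A RefSeq table named 23374 probes through an accession, 6733 through a symbol and 2919 through an older one, and the remaining 8148 carry the name in the file. Probes entered the tests if the scanner software called Cy5 well above background on 8 or more arrays, and the tested probe with the highest mean intensity stands for a gene. Diets were compared by limma's empirical Bayes test on all 17 arrays without covariates, with Benjamini-Hochberg adjustment over every tested gene and 0.05 as the threshold. Slopes and correlations used deviations from the diet means over 15 arrays, with 100000 permutations within diets, or all permutations within 1 diet. The scripts were tested on simulated data. Precision is set by the count of arrays.

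The members, the gene lists and the tests were chosen with earlier results of these data known. Named were all members with every probe, the 3 genes of each list with the smallest unadjusted p between the diets, the 5 genes most like Sec23a, and Hspa5 and Col1a1. Motifs were searched on both strands of the promoter windows in Python 3.11.15, and plots used matplotlib 3.10.9. The alternatives tried were other background corrections and normalizations, the authors' values, other probe filters and summaries, array weights, leaving out each array, a replicate block, and the scan order split into the first 8 and the later 9 arrays, the last chosen after seeing the data. All arrays share 1 scan date and 1 scanner.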

Additional observations from a re-analysis of the deposited data

Results flagged for a closer look

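Sec23b in HGI 9 had a log2 ratio of 0.578, far from the other HGI mice, the next highest of which was HGI 10 at 0.0896. Sec24b in HGI 5 had a log2 ratio of 0.237, against 0.086 for the next highest HGI mouse, and only just passed the criterion (Dixon's test, a gap of 0.494 of the group's range against a critical value of 0.493). The 10 coat genes, Hspa5 and Col1a1 were examined in both diets, 24 sets of values in all, and chance marks about 1 set in 20.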

How the results depend on the processing

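The number of genes past the adjusted threshold between the diets was 0, and it was 1 from Cy5 intensities alone, 1 with array quality weights, and 0 to 3 when each array was left out in turn (3 without LGI 7); 31 of 34 settings gave the same count. The count of coat genes past it was 0 in all 34 settings. The count of coat genes whose slope on Hspa5 passed was 0 in 32 of 33 settings and 2 with all 17 arrays, and on Col1a1 it was 0 in all 33. At an unadjusted p under 0.05 the count for Hspa5, 3, ran from 0 to 7 over the settings (0 in 5 of them) and from 0 to 3 when 1 array was left out, and that for Col1a1, 1, from 0 to 5 and from 0 to 2. The share of all genes at that level was not counted in those settings. The Sec23a difference ran from 0.12 (the authors' values) to 0.43 (processed signals) with adjusted p from 0.213 to 0.999, and from 0.26 (without HGI 6) to 0.32 (without HGI 7) when each array was left out. Signs held in all 34 settings for 8 coat genes, while Sar1b was lower in 1 (-0.004, without HGI 9 and HGI 10) and Sec24a in 3 (to -0.10, the authors' values); the cause was not tested.

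Replicate numbers shared by both diets (7 pairs) correlated at -0.38 to 0.26, 3 of them over 0.1, and 1 of 7 arrays was most like its own number, so the numbers were not taken to pair the mice. With the replicate block over 14 arrays the Sec23a difference was 0.33, 0 genes and 0 coat genes passed between the diets, and over 12 arrays 0 coat genes passed on Hspa5 and 0 on Col1a1. A term for the scan date was not run, since 1 date held all arrays. Dim probes limit the second probe of Sec23a, so that gene rests on 1 probe.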
